A study of Mus musculus with 12 samples.

Results

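The genes described here are those of 7 solute carrier families that hold most plasma membrane and lysosomal amino acid transporters: Slc1a, Slc3a, Slc6a, Slc7a, Slc36a, Slc38a and Slc43a. A gene belonged to the set when its symbol starts with one of these names and it had a probe set with that symbol alone, and this gave 64 of the 19938 genes on the array. RNA came from germinal centre (GC) B cells of female mice. Donor SwHEL B cells, which carry a receptor for hen egg lysozyme and the CD45.1 marker, had been moved into C57BL/6J (CD45.2) hosts that were then immunized with sheep red blood cells carrying the lysozyme mutant HEL3x. On day 10, donor cells from spleen (CD45.1+, CD45.2-, IgG1+, CD38 low) were sorted as light zone (LZ) cells, high for CD86 and low for CXCR4, or as dark zone (DZ) cells with the reverse pattern, each at high or low affinity. The 4 groups (DZ high, DZ low, LZ high and LZ low affinity) had 3 one-colour arrays each. The sources used here do not give the affinity gate, the age of the mice or the number of animals behind a group, so the spread that p-values rest on may be technical. Each group has 1 array from each of 3 matched sets, read from a shared suffix of the sample descriptions, and values below are listed in the order of sets 1, 2 and 3.

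Amino acids are charged or polar and cross membranes through carrier proteins. Slc7a5 and Slc3a2 are the light and the heavy chain of one carrier, LAT1, which brings in leucine and other large neutral amino acids in exchange for glutamine, and Slc1a5 is a glutamine exchanger. Other members work at the lysosome, where amino acids are sensed by the growth kinase complex mTORC1. In the GC, B cells that receive T cell help in the LZ switch on Myc and mTORC1, grow, and return to the DZ to divide.

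Of the 64 genes, 19 had a mean value over the 12 arrays above the array median of all probe sets, which lay between 5.57 and 5.72 on the log2 scale. That is 29.7% of them, against 52.8% of all 19938 genes. By family they were 6 of 16 Slc7a genes, 5 of 11 Slc38a, 3 of 21 Slc6a, 2 of 3 Slc43a, and 1 each of 7 Slc1a, 2 Slc3a and 4 Slc36a genes. In 14 of the 19, all 12 arrays were at or above the median: Slc1a5, Slc3a2, Slc6a6, Slc7a1, Slc7a5, Slc7a6, Slc7a6os, Slc7a7, Slc38a1, Slc38a2, Slc38a7, Slc38a9, Slc38a10 and Slc43a3. The other 5 lay at the edge. Slc6a3 was at or above the median in 11 arrays, Slc6a8 in 10, Slc36a1 and Slc43a1 in 8 each, and Slc7a10 in 7. Genes with a mean below the median that still reached it on 3 or more arrays were Slc6a7 (6 arrays, mean 0.018 below the median), Slc38a6 (4 arrays), and Slc6a12 and Slc6a17 (3 arrays each). Slc7a6os is a member by its symbol only: it is named for its place on the opposite strand beside Slc7a6 and does not encode an amino acid carrier. A probe set's value depends on its probes as well as on the RNA, so values are compared between groups for one gene and not between genes.

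**Figure D1:**
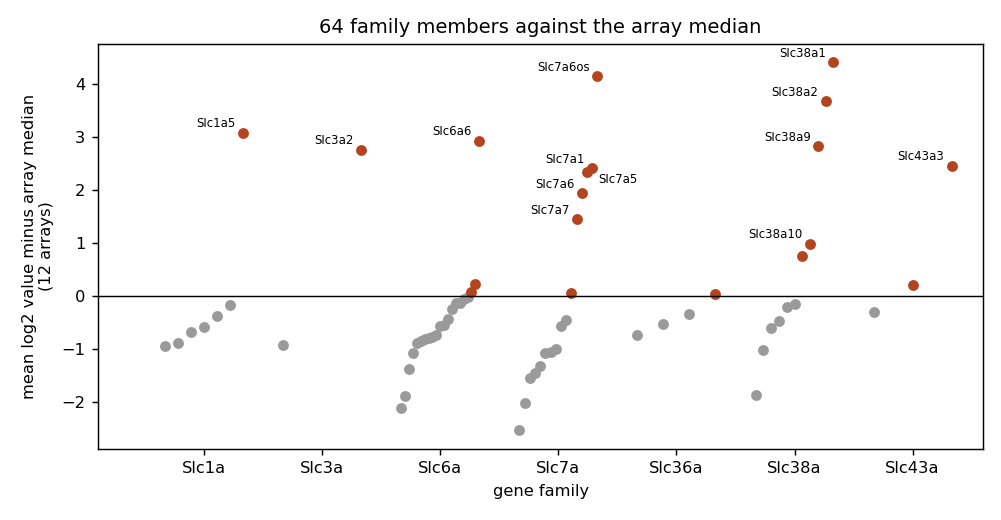
Each point is 1 of the 64 genes, placed by its family on the x axis, and the y axis is its mean log2 value over 12 arrays minus the array median. The 19 genes above 0 are coloured, and genes more than 0.9 above are named. Most Slc1a and Slc6a genes lie below the line, and Slc38a1 is the point farthest above it.

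The 45 genes below the median had means from 3.09 (Slc7a12) to 5.61 (Slc6a7). They include the brain glutamate carriers Slc1a1, Slc1a2 and Slc1a3, the neutral exchanger Slc1a4 (5.04), the heavy chain Slc3a1 (4.71), the LAT2 light chain Slc7a8 (4.30) and Slc7a11, the cystine importer xCT (3.61). Of these 45 genes, 35 had no array at or above the median. Group means spanned a median of 0.18 log2 units per gene, and at most 0.63, for Slc36a4. Without detection calls, a value below the median gives no lower limit to the RNA present.

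The test was run on genes whose value reached the array's own median on 3 or more of the 12 arrays, which 23 of the 64 did: the 19 and Slc6a7, Slc6a12, Slc6a17 and Slc38a6. A gene high in 1 group alone can pass this filter. None of the 23 was called by limma (adjusted p below 0.05, Benjamini-Hochberg over 11206 genes) in any of the 7 contrasts of zone and affinity, with or without the matched set as a replicate block. The background was low too. For LZ minus DZ over both affinities 0.419% of all genes were called (1.2% with the replicate block), at high affinity 0.0357% (0.0803%) and at low affinity 0.0357% (0.223%). For high minus low affinity, over both zones, in LZ and in DZ, and for the interaction of zone and affinity, 0% were called in either fit. At an unadjusted p under 0.05, LZ minus DZ held 2 of the 23 (7.06% of all genes) and high minus low affinity over both zones held 2 (5.25%). The zone contrast held 1 at high affinity (4.53% of all genes) and 1 at low affinity (4.69%). The affinity contrast held 1 in the DZ (2.2%) and 0 in the LZ (4.16%), and the interaction held 0 (1.58%). The values that follow describe these arrays. Counts of pairs compare arrays of the same matched set, and pairs from the same set are not independent. The share of all genes with such counts was not computed.

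Array values that did not overlap between groups were counted as well. Between all LZ and all DZ arrays, and between all high and all low affinity arrays, no tested transporter gene was separated (0.991% and 0.268% of all genes were). At high affinity, LZ and DZ arrays did not overlap for 2 of the 23, Slc3a2 and Slc38a10 (7.38% of all genes). At low affinity this was so for 3, Slc7a1, Slc7a6os and Slc43a3 (9.26% of all genes). In the DZ, high and low affinity arrays did not overlap for 2, Slc7a5 and Slc38a10 (7.16%), and in the LZ for 0 (8.81%). Counts out of 23 genes are given here as a description only.

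**Figure D2:**
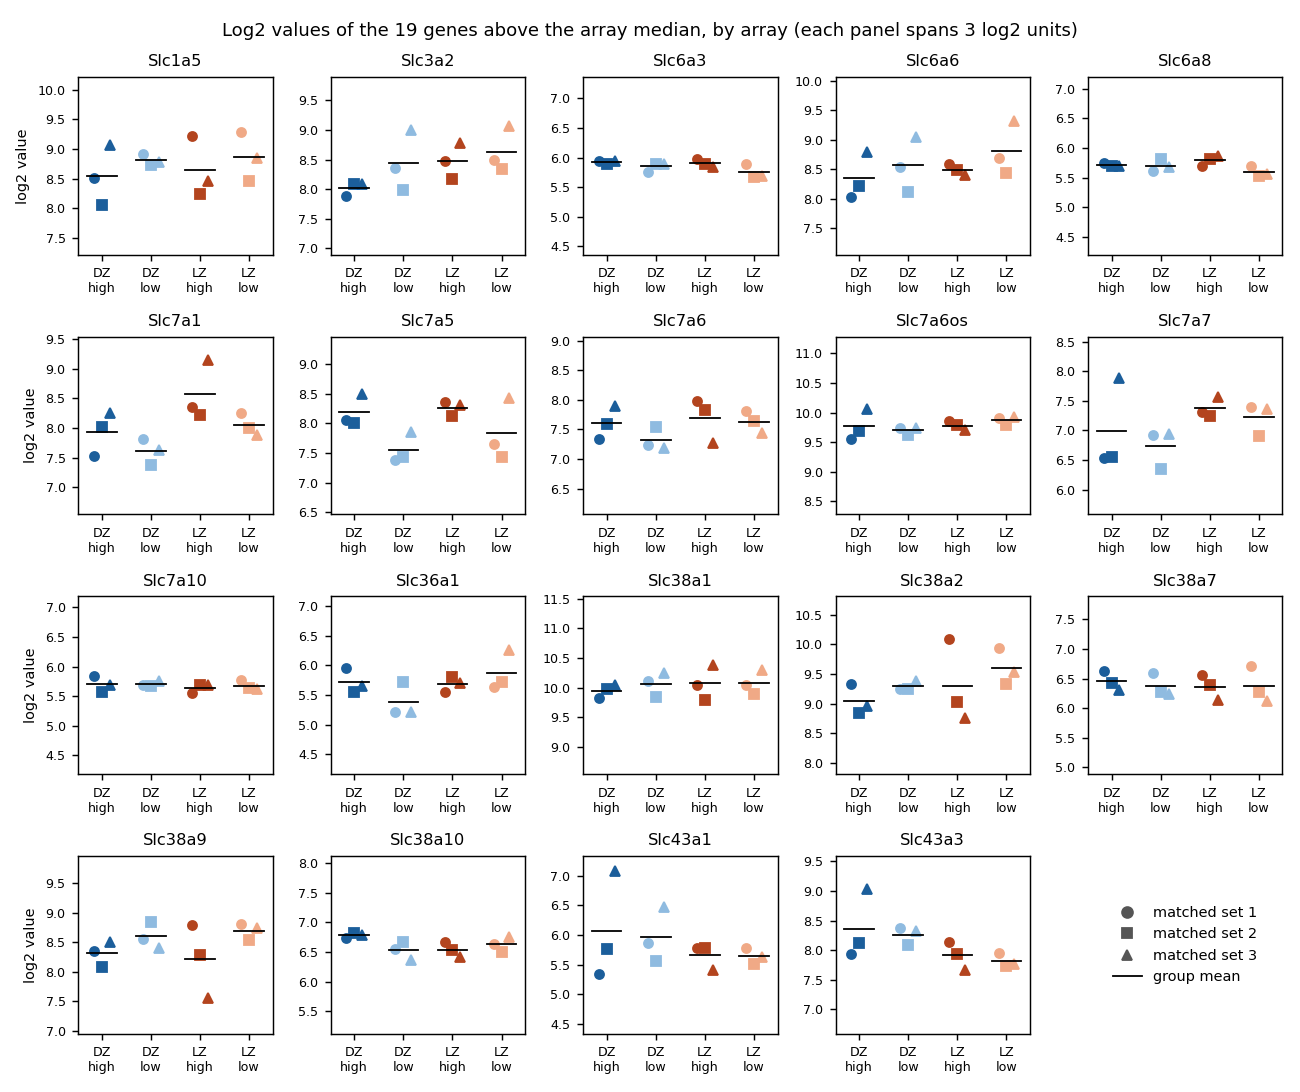
Each panel is 1 of the 19 genes above the array median, with the log2 value of each array on the y axis (each panel spans 3 log2 units) and the 4 groups on the x axis. Symbols mark the matched set and lines the group means. Slc7a5 is higher in the high affinity arrays of the DZ, and single arrays of matched set 3 stand off for Slc7a1, Slc7a7, Slc38a9, Slc43a1 and Slc43a3.

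Slc7a5, the light chain of LAT1 that carries the amino acid, had the lowest unadjusted p of the set for affinity. Its log2 values were 8.06, 8.02 and 8.50 in DZ high affinity arrays and 7.38, 7.43 and 7.86 in DZ low affinity arrays. In the LZ they were 8.36, 8.13 and 8.31 at high and 7.66, 7.44 and 8.43 at low affinity. High affinity arrays were thus above low affinity arrays of the same set in 5 of 6 pairs, and the exception was set 3 in the LZ, where the low affinity array was the second highest of the 12. The difference between high and low affinity over both zones was 0.53 ± 0.18 (SE; 95% interval 0.14 to 0.92; limma unadjusted p = 0.0124, adjusted p = 0.852, 0.327 with the replicate block). In the DZ it was 0.64 ± 0.25 and in the LZ 0.43 ± 0.25, with adjusted p = 1 and 0.999. The interaction was -0.21 (95% interval -0.99 to 0.57). The LZ difference was 0.22 without LZ low replicate 2, 0.72 without LZ low replicate 3 and 0.70 without matched set 3. By zone Slc7a5 differed by 0.18 ± 0.18, and by 0.28 and 0.03 without LZ low replicates 2 and 3.

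Slc3a2, also known as CD98, is the heavy chain that brings Slc7a5 and other light chains to the cell surface. Its values were 7.89, 8.09 and 8.08 in DZ high affinity arrays, the narrowest of the groups (SD 0.11, n = 3), and 8.35, 7.98 and 9.0 in DZ low affinity arrays. LZ arrays read 8.48, 8.17 and 8.78 at high and 8.49, 8.33 and 9.07 at low affinity. LZ was above DZ in 6 of 6 pairs, by 0.32 ± 0.19 (adjusted p = 0.917, 0.393 with the replicate block), and by 0.20 without DZ low replicate 2 or 0.21 without LZ low replicate 3. At high affinity the difference was 0.45, and 0.30 without LZ high replicate 3. At low affinity it was 0.19, -0.045 without DZ low replicate 2, -0.034 without LZ low replicate 3, 0.33 without LZ low replicate 2 and 0.46 without DZ low replicate 3. For affinity the difference was -0.29 ± 0.19 (adjusted p = 0.964), with high below low affinity in 5 of 6 pairs. It was -0.15 without DZ low replicate 3, -0.18 without LZ low replicate 3 and -0.13 without matched set 3. In the DZ it was -0.42 ± 0.27, -0.65 without DZ low replicate 2, -0.15 without DZ low replicate 3 and -0.17 without matched set 3.

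Both chains are needed for the carrier. Their fitted affinity differences were 0.53 for Slc7a5 and -0.29 for Slc3a2, neither of them called. Taken on the same array, Slc7a5 minus Slc3a2 was 0.17, -0.08 and 0.41 in the DZ and -0.12, -0.04 and -0.47 in the LZ at high affinity. At low affinity it was -0.97, -0.56 and -1.14 in the DZ and -0.83, -0.90 and -0.64 in the LZ. The 6 high affinity arrays, from -0.47 to 0.41, all lay above the 6 low affinity arrays, from -1.14 to -0.56. Group means were 0.17 ± 0.25 and -0.21 ± 0.23 at high and -0.89 ± 0.30 and -0.79 ± 0.14 at low affinity, DZ before LZ (SD, n = 3). This pairing of genes was chosen after their values were seen and was not tested. Affinity differences of opposite sign add up in such a subtraction. How many other pairs of genes separate the arrays in this way was not counted. Neither gene's affinity difference passed the test, and nothing further is read from the pattern.

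**Figure D3:**
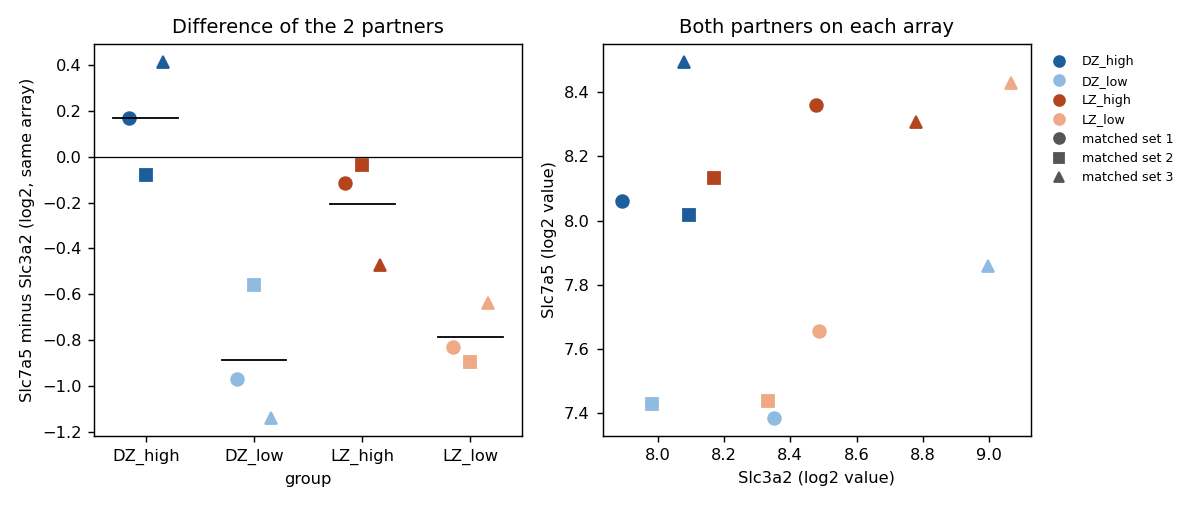
Left, the log2 value of Slc7a5 minus that of Slc3a2 on the same array (y axis) by group, with lines at group means. Right, the value of each gene on each array. Colours mark groups and symbols matched sets: the 6 high affinity arrays lie above -0.5 in the left panel and the 6 low affinity arrays below it. The pair was chosen after its values were seen, and other pairs of genes were not counted.

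Slc7a1, the main carrier for arginine and lysine (CAT1), does not need Slc3a2. It read 7.53, 8.02 and 8.26 in DZ high affinity arrays and 7.82, 7.37 and 7.62 in DZ low affinity arrays, against 8.35, 8.22 and 9.15 and 8.25, 8.0 and 7.88 in the LZ. The LZ array was the higher in 6 of 6 pairs, and the lowest unadjusted p of the set for zone was that of Slc7a1. The zone difference was 0.54 ± 0.19 (95% interval 0.13 to 0.95; unadjusted p = 0.0143, adjusted p = 0.428, 0.253 with the replicate block). Without matched set 3 it was 0.52. At low affinity it was 0.44, and at high affinity 0.64, or 0.35 without LZ high replicate 3. For affinity Slc7a1 differed by 0.43 ± 0.19 (unadjusted p = 0.0409, adjusted p = 0.944), higher in 5 of 6 pairs. The highest of its 12 values was the LZ high affinity array of set 3. The affinity difference was 0.17 without that set and 0.29 without that array, and the LZ affinity difference was 0.53, and 0.24 without that array.

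Slc7a7 and Slc7a6 encode light chains (y+LAT1 and y+LAT2) that pair with Slc3a2 and exchange cationic for neutral amino acids. Slc7a7 read 6.54, 6.56 and 7.88 in DZ high affinity arrays, so that the set 3 array was the highest of all 12, and 6.93, 6.35 and 6.93 in DZ low affinity arrays. In the LZ the values were 7.32, 7.25 and 7.57 at high and 7.40, 6.91 and 7.36 at low affinity. LZ was above DZ in 5 of 6 pairs, by 0.44 ± 0.23 (adjusted p = 0.84, 0.384 with the replicate block), by 0.66 without DZ high replicate 3 and by 0.62 without matched set 3 (adjusted p = 0.143). Slc7a6 read between 7.18 and 7.98, with all groups overlapping. Slc7a6os read between 9.55 and 10.06, and its group means were between 9.70 and 9.88. Slc7a6 and Slc7a6os are neighbours on opposite strands, and whether labelling kept the strand is not given in the sources used here.

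Neutral carriers that take up glutamine include Slc1a5, Slc38a1 and Slc38a2. Slc1a5 (ASCT2) read 8.51, 8.05 and 9.07 in DZ high, 8.91, 8.73 and 8.78 in DZ low, 9.22, 8.24 and 8.45 in LZ high and 9.29, 8.46 and 8.85 in LZ low affinity arrays. All groups overlapped. Its zone difference of 0.08 ± 0.22 (95% interval -0.41 to 0.56) was 0.25 without matched set 3 and changed sign without DZ high replicate 2 (-0.045), LZ high replicate 1 (-0.068) or LZ low replicate 1 (-0.028). High affinity arrays were below low affinity arrays in 5 of 6 pairs, by -0.25 ± 0.22 (adjusted p = 0.964). Without 1 array that value ran from -0.12 (DZ high replicate 2) to -0.39 (LZ high replicate 1), and it was -0.14 without LZ low replicate 1, -0.15 without LZ high replicate 2 and -0.38 without DZ high replicate 3.

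Slc38a1 and Slc38a2 (SNAT1 and SNAT2) are sodium-coupled carriers of small neutral amino acids whose genes are neighbours on the chromosome. Slc38a2 is also known as a gene that cells raise when amino acids are scarce. Slc38a1 read between 9.79 and 10.39 over the 12 arrays, with group means from 9.94 to 10.07. It had another probe set, with a mean of 9.33 in place of 10.04. Slc38a2 read 9.33, 8.85 and 8.96 in DZ high, 9.25, 9.25 and 9.38 in DZ low, 10.10, 9.03 and 8.76 in LZ high and 9.94, 9.33 and 9.53 in LZ low affinity arrays. The 2 highest values were both LZ arrays of set 1. The zone difference of Slc38a2 was 0.28 ± 0.22 (adjusted p = 0.999), 0.076 without LZ high replicate 1 and 0.43 without matched set 3. Its affinity difference was -0.28 ± 0.22 (adjusted p = 0.964), -0.48 without LZ high replicate 1, -0.14 without LZ high replicate 3 and -0.12 without matched set 3.

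Slc38a9, Slc38a7 and Slc36a1 act at the lysosome. Slc38a9 senses arginine there for mTORC1. It read 8.35, 8.08 and 8.50 in DZ high, 8.55, 8.84 and 8.41 in DZ low, 8.78, 8.29 and 7.56 in LZ high and 8.81, 8.54 and 8.74 in LZ low affinity arrays. The LZ high affinity array of set 3 had the lowest of these values. High affinity arrays were below low affinity arrays in 5 of 6 pairs, by -0.39 ± 0.19 (95% interval -0.80 to 0.03; adjusted p = 0.949, 0.535 with the replicate block). It was -0.23 without LZ high replicate 3. The LZ difference of -0.49 was -0.16 without that array, -0.77 without LZ high replicate 1 and -0.14 without matched set 3. Another probe set of Slc38a9 had a mean of 7.47 in place of 8.45, and the differences given are not from it. Over the alternatives that kept more than single arrays aside or none, averaging of both probe sets included, the affinity difference ran from -0.413 to -0.266. Slc38a7, which lets glutamine out of the lysosome, read between 6.11 and 6.72, and its group means lay between 6.36 and 6.45.

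Slc36a1 (PAT1), a proton-coupled carrier of small amino acids, lay at the array median. Its values were 5.95, 5.55 and 5.64 in DZ high and 5.21, 5.72 and 5.21 in DZ low affinity arrays, and 5.55, 5.80 and 5.70 and 5.63, 5.72 and 6.26 in LZ high and LZ low affinity arrays. At low affinity LZ was above DZ by 0.49 ± 0.21 (unadjusted p = 0.0395, adjusted p = 0.99), by 0.29 without LZ low replicate 3 and by 0.21 without matched set 3. Its interaction of zone and affinity was -0.52 ± 0.30 (adjusted p = 1), -0.33 without LZ low replicate 3 and -0.28 without matched set 3. Slc38a10, whose substrates are little known, read 6.74, 6.82 and 6.78 in DZ high affinity arrays, above the DZ low affinity arrays (6.55, 6.66 and 6.36) and the LZ high affinity arrays (6.67, 6.53 and 6.41). LZ low affinity arrays read 6.63, 6.49 and 6.75. The DZ affinity difference of Slc38a10 was 0.25 ± 0.14 (adjusted p = 1) and its interaction was -0.34 ± 0.20 (adjusted p = 1), and -0.13 without matched set 3.

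Sequence upstream of the start site was available from RefSeq (GRCm38.p6) for 13 of the 19 genes, as windows from 250 bases before to 50 bases after each start. They were searched on both strands for CACGTG, the E-box bound by Myc and by the lysosomal gene regulators of the TFEB family, and for TGATGNAA, a core of the element bound by ATF4 when amino acids run short. The E-box was in the window of 4 of the 13 (Slc36a1, Slc38a7, Slc43a1 and Slc6a3), against 8.09% of 27025 genes. Of these, Slc36a1, Slc43a1 and Slc6a3 lay at the edge of the array median, and the count was not tested. The ATF4 element was in 1 of the 13, Slc7a7, against 4.51%. Windows of Slc3a2, Slc7a1, Slc38a2 and Slc38a9 held neither. Slc36a1 held another E-box at its start site. Slc7a7, which has more than 1 start site, held another copy of its element, found in overlapping windows. Shown are 60 bases upstream of the start site, 5′ to 3′ on the gene's strand, for both lysosomal carriers with an E-box, for Slc43a1 and for Slc7a7, with the motif in capitals. They lie at chr11:55204280-55204339 (+), chr8:95853493-95853552 (-), chr2:84840232-84840291 (+) and chr14:54418052-54418111 (-), in this order.
Slc36a1: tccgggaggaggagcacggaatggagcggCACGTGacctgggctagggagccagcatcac
Slc38a7: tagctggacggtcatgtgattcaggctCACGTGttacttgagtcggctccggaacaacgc
Slc43a1: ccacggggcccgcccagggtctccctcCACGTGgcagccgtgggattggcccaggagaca
Slc7a7: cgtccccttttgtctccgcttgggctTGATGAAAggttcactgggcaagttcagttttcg
A match describes these letters and does not show that a factor binds there.

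Slc43a3, a carrier of purine bases rather than amino acids, was the member farthest below DZ in LZ cells. It read 7.94, 8.12 and 9.04 in DZ high and 8.38, 8.09 and 8.32 in DZ low affinity arrays, and 8.14, 7.93 and 7.67 in LZ high and 7.95, 7.74 and 7.76 in LZ low affinity arrays. LZ was the lower in 5 of 6 pairs, by -0.45 ± 0.18 (95% interval -0.85 to -0.05; unadjusted p = 0.0293, adjusted p = 0.593, 0.384 with the replicate block). Without DZ high replicate 3 the difference was -0.28, and without matched set 3 it was -0.19. Slc43a1 (LAT3), which moves large neutral amino acids without Slc3a2, read 5.34, 5.77 and 7.09 in DZ high and 5.86, 5.56 and 6.47 in DZ low affinity arrays, with both high values in set 3. LZ arrays lay between 5.41 and 5.79. Its zone difference of -0.37 ± 0.27 (adjusted p = 0.987) was -0.11 without DZ high replicate 3, -0.24 without DZ low replicate 3 and 0.081 without matched set 3.

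Among the Slc6a genes, Slc6a6, the taurine carrier, was above the median in all arrays. It read 8.04, 8.22 and 8.80 in DZ high, 8.53, 8.12 and 9.05 in DZ low, 8.58, 8.49 and 8.41 in LZ high and 8.69, 8.44 and 9.32 in LZ low affinity arrays, with all groups overlapping. Its affinity difference was -0.27 ± 0.20 (adjusted p = 0.964), -0.15 without DZ low replicate 3, -0.14 without LZ low replicate 3 and -0.11 without matched set 3. Slc6a8, the creatine carrier, read between 5.53 and 5.87, with an LZ affinity difference of 0.20 ± 0.13 (adjusted p = 0.999). Slc6a3, known as the dopamine carrier of neurons, read between 5.67 and 5.98. Slc7a10, a serine and glycine exchanger known mostly from brain, read between 5.55 and 5.84. Averaged over the arrays these 3 lay 0.064, 0.23 and 0.051 above the array median, in this order, and none of them had a group set apart.

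**Figure D4:**
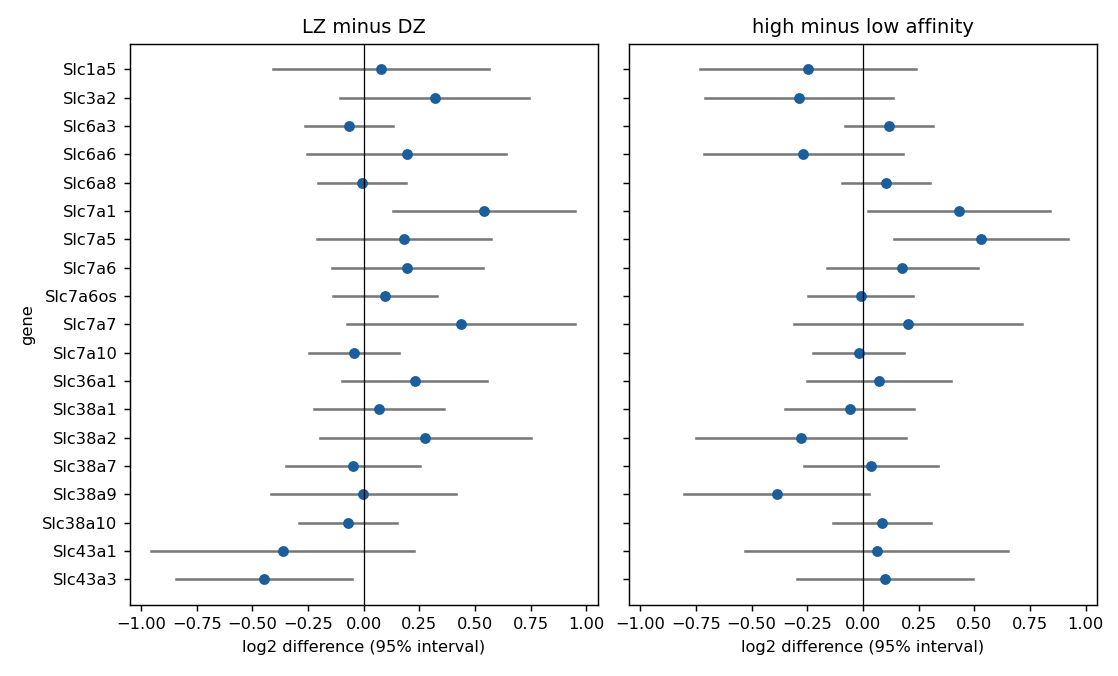
Points are log2 differences between groups for the 19 genes above the array median, LZ minus DZ on the left and high minus low affinity on the right, each over the mean of the other factor, and lines are 95% intervals of the limma fit. Intervals leave out 0 for Slc7a1 and Slc43a3 on the left and for Slc7a1 and Slc7a5 on the right, before adjustment for 11206 genes.

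Over the 19 genes, 11 had higher and 8 lower values in LZ than in DZ cells, with a median difference of 0.08 beside -0.004 over all tested genes. For affinity 11 were higher and 8 lower at high affinity, with a median of 0.06 beside -0.002. The 95% interval of a difference reached a median of 0.39 to each side in these contrasts (0.20 to 0.59), and 0.55 in contrasts within one zone or one affinity. These widths are from the fit without the replicate block and before adjustment. With 3 arrays a group, no difference of these genes was called after adjustment, the largest (0.64, Slc7a1 by zone at high affinity) included.

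Genes that work beside the carriers were taken from 4 lists. Of 33 tested genes of mTORC1 and its amino acid sensing, 0 were called by limma in any contrast without the block. In LZ minus DZ the smallest p values were those of Mios (0.59 ± 0.19, adjusted p = 0.372), Rptor (0.33 ± 0.11), Rraga (0.45 ± 0.15, adjusted p = 0.428) and Sesn1 (0.39 ± 0.14). Mios is part of the GATOR2 complex, Rptor is the mTORC1 subunit Raptor, Rraga is a Rag GTPase that brings mTORC1 to the lysosome, and Sesn1 is a sestrin. Rraga was called higher with the replicate block (adjusted p = 0.0439). The list's median was 0.07, with 20 genes higher and 13 lower. Of 26 tested genes of the amino acid response none was called, and the median in LZ minus DZ was -0.06. The smallest p values there were those of Atf3 (-0.39 ± 0.12, adjusted p = 0.29), Eif4ebp1 (-0.40 ± 0.15), Cars (-0.49 ± 0.22) and Atf4 (-0.26 ± 0.12, adjusted p = 0.737). Atf4 is the response's main regulator, Atf3 a transcription factor it acts with, Cars a transfer RNA synthetase for cysteine, and Eif4ebp1 a brake on translation that mTORC1 releases.

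For affinity over both zones, the response list had its smallest p with Phgdh (0.53 ± 0.13, unadjusted p = 0.00187, adjusted p = 0.805), the first enzyme of serine synthesis. Psat1, the next enzyme of that pathway, had 0.46 ± 0.18, Ddit3 -0.46 ± 0.18 and Aldh18a1, of proline synthesis, -0.52 ± 0.23. Of 25 tested genes of amino acid use, 0 were called. In that list 17 had higher and 8 lower values at high affinity, with a median of 0.10 beside -0.002 over all tested genes. The response list had 11 higher and 15 lower (median -0.04), and the mTORC1 list 11 higher and 22 lower (median -0.05). Phgdh and Psat1 are in the list of amino acid use too, with the spermidine synthase gene Srm (0.54 ± 0.20) and Bcat1, which transaminates leucine (0.37 ± 0.13). Of 14 tested carriers outside the 7 families none was called. The lowest p for affinity there was that of Slc15a4, a lysosomal histidine and peptide carrier (-0.41 ± 0.18, adjusted p = 0.944).

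Of the genes used for the sort, Cd86 was called higher in LZ than DZ arrays (1.13 ± 0.11, limma adjusted p = 0.00138), and Cxcr4 had -0.63 ± 0.18 (adjusted p = 0.271, 0.0449 with the replicate block). The zone difference of Cd86 was 1.47 at high affinity (limma adjusted p = 0.00498). At low affinity it was 0.80 and was not called (adjusted p = 0.149). In the DZ, Cd86 had a high minus low affinity difference of -0.81 (limma unadjusted p = 0.000217), which was not called. Whether affinity differences of transporter genes go with this was not tested. Markers of the sorted cells were present: 5 of 5 measured B cell genes and 4 of 4 measured GC genes were above the array median. Markers of other cells were partly above it, 3 of 8 for macrophages (Cd68, C1qa and Lyz2), 4 of 8 for granulocytes (S100a8, S100a9, Ngp and Camp), 1 of 6 for T cells (Cd3e) and 1 of 2 for erythroid cells (Slc4a1). The mean log2 value of the granulocyte list ran from 5.34 to 7.01 in DZ high, 5.44 to 6.41 in DZ low, 5.28 to 6.83 in LZ high and 5.41 to 6.77 in LZ low affinity arrays. That of the macrophage list ran from 5.17 to 5.32, 4.98 to 5.19, 4.96 to 5.36 and 5.04 to 5.72 in the same order. The groups overlap in both list means, but single genes differed more. Cd68 had an LZ minus DZ difference of 0.655 ± 0.18 (limma adjusted p = 0.234), and 0.87 at low affinity. All 4 tested macrophage genes had higher values in LZ (median 0.13 beside -0.004 over all tested genes). Of 6 tested granulocyte genes, 0 were higher in LZ at high affinity and 5 at low affinity (medians -0.43 and 0.54). None of these genes was called. The part of these cells in the values of the transporter genes was not tested. In sorted bulk RNA, fewer cells of a type and less RNA per cell cannot be told apart.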

How the data were processed

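The authors deposited a log2 value for each probe set and sample. The submitters' processing notes name RMA and build mm8. That the scale is log2 was read from the values, which run from 1.99 to 13.74. Scanner files were not used here, so the background correction could not be varied. Of 28853 probe sets, 21789 had 1 gene symbol, 1621 several and 5443 none, and 21698 of the 21789 matched the reference table by gene ID. For a gene with several probe sets, the one with the highest mean over 12 arrays was taken (2 of the 64 genes). Genes that reached the array median on fewer than 3 arrays were left out of the fit.

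Group means over all 12 arrays were fitted by lmFit and eBayes (R 4.3.3, limma 3.58.1), with two-sided p-values and Benjamini-Hochberg adjustment over 11206 genes, after a check on simulated data. The 7 contrasts are named in the text. Values are log2 differences with their SE, from the fit without the replicate block unless stated. With group means removed, 17 of 18 pairs of arrays from one matched set correlated above 0.1 across genes (median 0.41). The shared suffix was read as a batch or day, so the replicate block is given beside the results. The named genes are Slc7a5, Slc3a2 and Slc1a5, any member called, the 3 with the lowest p in each direction, among genes above the median, in LZ minus DZ and in the affinity contrasts (both zones, LZ, DZ), and the 8 with the highest mean. Other genes above the median are given by the range of their values. From each related list the named genes are any gene called and up to 4 with the lowest p. Members, lists, rules and the gene names were chosen with earlier results of these data known. Alternatives were the block, the filter, the normalization, array weights, averaging all probe sets of a gene, and leaving out matched set 3 or each array. The number of arrays limits the precision.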

Additional observations from a re-analysis of the deposited data

How the results depend on the processing

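No transporter gene was called by limma in any contrast under any alternative run (with the replicate block, no filter or the stricter one, a new quantile normalization, centring, array weights, averaged probe sets, without matched set 3, without each array). The stricter filter left 7 differences of Slc6a8, Slc36a1, Slc38a10 and Slc43a1 untested. The 31 differences followed are of genes named in the text, many of them named for a low p on these same arrays. Over the alternatives they gave 644 values, of which 637 kept their sign. Many of these could not change sign, so the count does not measure stability. The block and the filters leave a difference unchanged, as does leaving out an array outside the groups compared. Averaging probe sets changes only genes with several. The smallest limma adjusted p was 0.104, for the zone difference of Slc7a7 with the block and without matched set 3. That setting was chosen after seeing the data. The 7 changes of sign were those of Slc43a1 in LZ minus DZ without matched set 3 (0.081 without and with the block), of Slc1a5 in LZ minus DZ without DZ high replicate 2 (-0.045), LZ high replicate 1 (-0.068) or LZ low replicate 1 (-0.028; -0.068 to 0.211 without 1 array), and of Slc3a2 in LZ minus DZ at low affinity without DZ low replicate 2 (-0.045) or LZ low replicate 3 (-0.034; -0.045 to 0.461 without 1 array). None of these values was called. With array weights, differences that moved by over 1.5 times include those of Slc3a2 (zone 0.14), Slc7a1 (affinity 0.21) and Slc1a5 (affinity -0.48).

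The counts over all genes moved more. For LZ minus DZ the 47 called genes became 135 with the replicate block, 80 after a new quantile normalization, 28 after centring, 211 with array weights, 85 without matched set 3 (86 with the block), and 12 (without DZ low replicate 1) to 67 (without LZ high replicate 3) without 1 array. At high affinity the 4 became 9 with the replicate block, 21 with array weights and 2 to 5 without 1 array. At low affinity the 4 became 25 with the replicate block, 7 after quantile normalization, 32 with array weights and 0 to 5 without 1 array. For affinity over both zones the 0 became 1 with quantile normalization or array weights, and in the DZ 1 without DZ low replicate 1 (0 to 1 without 1 array). The causes were not tested.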
